A study of Mus musculus with 8 samples.

Results

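Gas6 and Pros1 encode the ligands, and Axl, Tyro3 and Mertk the receptors, of the TAM family of receptor tyrosine kinases. These 5 genes were taken by symbol from a deposited table of 23235 gene symbols, where they have 7 RefSeq transcripts, and all 5 passed the filter on low values that left 12025 genes for testing. The family was selected on FPKM values of these same libraries, with earlier results known, so the levels of its genes are given as a description, and what the fit across all genes called is listed only beside its background. The libraries come from mouse embryonic fibroblasts (MEF) of strain C57BL/6 and form 4 groups of 2. TAFH-deleted rescue cells are Taf4 -/- cells with a stable transgene for human TAF4 that lacks its TAFH domain (hTAF4 Δ, clones 1 and 2). Wild-type rescue cells are Taf4 -/- cells with full-length human TAF4 (hTAF4 wt, clones 1 and 2). Knockout cells are Taf4 -/- without a transgene, and control cells are Taf4 loxp/-, with 1 floxed and 1 null allele; their genotype field reads wild type. No group here has both Taf4 alleles intact, and the labels do not name the promoter of the transgene, how the floxed allele was deleted, or whether clones arose independently. TAF4 belongs to TFIID, the complex that recognises core promoters for RNA polymerase II, and the study's title ties it to E proteins, transcription factors that bind the E-box sequence CANNTG.

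GAS6 and protein S, the product of Pros1, are secreted proteins that need vitamin K dependent carboxylation of an amino-terminal Gla domain. That domain binds phosphatidylserine on dying cells and on shed membrane, while the carboxy-terminal part binds the extracellular domain of a TAM receptor, so that the ligand bridges both. GAS6 binds all of the TAM receptors, whereas protein S, better known as an anticoagulant cofactor in plasma, activates TYRO3 and MERTK. AXL is the TAM receptor most often described in fibroblasts, MERTK is known best for the clearance of apoptotic cells by macrophages and retinal pigment epithelium, and TYRO3 is prominent in the nervous system. Gas6 takes its name (growth arrest specific) from fibroblasts, where it was found as a transcript raised on serum withdrawal.

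Because the study concerns E proteins, the 250 bases before the annotated start of each of the 5 genes were searched for CANNTG, a pattern that reads the same on both strands. RefSeq promoter windows (GRCm38.p6) were matched for all 5 genes. Both ligand genes held 1 match, and no match was found in these windows of Axl, Tyro3 or Mertk, while 66.2% of 32851 promoter windows of this length held at least 1. The windows of the ligand genes, and that of Mertk for a receptor gene, are shown 5′ to 3′ on the strand of the gene, with CANNTG matches in capitals.
Gas6 (chr8:13494536-13494785, minus strand): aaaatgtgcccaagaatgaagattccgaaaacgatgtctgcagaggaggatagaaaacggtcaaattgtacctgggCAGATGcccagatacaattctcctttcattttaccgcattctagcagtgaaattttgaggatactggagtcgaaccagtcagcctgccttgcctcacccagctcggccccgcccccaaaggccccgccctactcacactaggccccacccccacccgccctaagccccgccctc
Pros1 (chr16:62854057-62854306, plus strand): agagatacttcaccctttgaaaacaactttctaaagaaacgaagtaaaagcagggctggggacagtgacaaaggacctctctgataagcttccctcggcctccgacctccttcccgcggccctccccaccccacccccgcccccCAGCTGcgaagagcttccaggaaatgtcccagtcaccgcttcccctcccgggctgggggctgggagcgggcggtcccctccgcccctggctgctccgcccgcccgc
Mertk (chr2:128698665-128698914, plus strand): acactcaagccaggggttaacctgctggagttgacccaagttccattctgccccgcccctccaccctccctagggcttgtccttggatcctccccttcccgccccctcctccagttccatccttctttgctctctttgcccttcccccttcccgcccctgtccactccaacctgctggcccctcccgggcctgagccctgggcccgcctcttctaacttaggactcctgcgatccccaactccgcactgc
The Gas6 match is CAGATG, which begins 174 bases before the start. The Pros1 match is CAGCTG, 106 bases before the start, a version of the E-box held by 4271 of the 32851 windows. The GC content was 54.8% in the Gas6 window, 64.4% in that of Pros1 and 63.6% in that of Mertk, against a median of 52.4% over all windows. The GC box GGGCGG or its reverse complement CCGCCC, which overlaps none of these E-box letters, was present 4 times before Gas6, 5 times before Pros1 and 3 times before Mertk, and in 32.7% of all windows at least 1 time. A match is a description of the letters and not a binding site, and binding was not measured here.

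The steps between low values of FPKM (fragments scaled to transcript length and to library size) imply totals between 14300000 and 17300000 fragments per library. Both control libraries had 17300000 and both knockout libraries 14800000. Sampling noise alone exceeded the difference between the control libraries, which had a chi-square per gene of 0.764 ± 0.0393 (SE, 801 genes with means of 2 to 7 fragments) where independent reads give 1, and so did the knockout libraries, at 0.612 ± 0.0340 (SE). Each of these pairs was therefore averaged and counted as 1 sample, so that the knockout and control values below carry no replicate error. The chi-square was 2.33 ± 0.0989 (SE) between the TAFH-deleted clones and 1.72 ± 0.0757 (SE) between the wild-type rescue clones. Taf4a, the targeted gene, was at 14.7 and 19.2 FPKM in TAFH-deleted rescue, 14.5 and 15.0 in wild-type rescue, 12.5 and 12.4 in knockout and 11.1 and 11.5 in control. Its level was thus no lower in libraries labelled knockout than in control, and the deleted exons are not stated, so Taf4a does not check the labels, and knockout below means that label. Of 10 fibroblast markers, 9 reached 1 FPKM in at least 2 libraries, the level asked of every marker here, and Thy1 was at most 0.0773 FPKM. Their sums were 708 to 841 FPKM in TAFH-deleted rescue, 885 in both wild-type rescue clones, 809 to 810 in knockout and 905 to 907 in control. Among them Col1a1 lay between 113 and 131 FPKM in all libraries. A limit on read starts, described with Pros1 below, could compress differences of such high values and of the sums, which was not tested. Pdgfra, which encodes a platelet-derived growth factor receptor, was at 11.5 and 8.81 FPKM in TAFH-deleted rescue, 52.9 and 56.7 in wild-type rescue, 17.4 and 17.3 in knockout and 51.3 and 52.2 in control. Smooth and skeletal muscle markers, 2 of 7 of them at 1 FPKM or more, summed to 95.5 to 140 FPKM in TAFH-deleted rescue, 129 to 137 in wild-type rescue, 179 to 180 in knockout and 148 to 151 in control. Endothelial and epithelial markers were absent or nearly so, with none of 7 in either list at 1 FPKM in at least 2 libraries. In bulk RNA, fewer cells that express a gene and less RNA of it per cell cannot be told apart.

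Gas6 was the member that differed most. Its single transcript (mm9 chromosome 8, 13465374 to 13494535, 2593 bases) was at 2.996 and 3.59 FPKM in knockout cells, against 47.2 and 45.8 FPKM in control cells. Neither form of TAF4 was accompanied by a return: Gas6 was at 0.235 and 0.0258 FPKM in TAFH-deleted clones and at 0.760 and 0.545 FPKM in wild-type rescue clones. The level was highest in control, then in knockout, in wild-type rescue and in TAFH-deleted rescue, and no 2 groups overlapped. Between the rescue forms alone, 63.5% of all genes tested did not overlap either. Converted to fragments, Gas6 had 8 and 1 in TAFH-deleted clones, 31 and 22 in wild-type rescue clones, 106 and 127 in the knockout libraries and 1946 and 1893 in the control libraries. The single fragment in TAFH-deleted clone 2 has an exact Poisson interval of 0.0253 to 5.57 fragments at 95%, which covers counting error only, as do all such intervals here. Knockout cells thus stood 14.1-fold below control, with a counting interval of 12.4 to 16.2 (exact binomial on the summed fragments, at 95%). Such an interval takes the libraries of a group as independent, so those that involve knockout or control may be too narrow. The wild-type rescue clones stood 5.05-fold below knockout (counting interval 3.73 to 6.93), and 71.3-fold below control (54.3 to 95.2). Gas6 used 37.5% and 36.5% of its read starts in control, 2.04% and 2.45% in knockout and at most 0.598% in rescue clones. A limit on read starts, described with Pros1 below, could compress the control values and so the ratios to control, which was not tested.

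The gap between the rescue forms rests on few fragments. TAFH-deleted clones averaged 0.130 ± 0.148 FPKM and wild-type rescue clones 0.652 ± 0.152 FPKM (SD, n = 2 each), a 5.01-fold difference with a counting interval of 2.59 to 12.2. On the log2(FPKM + 1) scale, which understates differences of low values, Gas6 differed by -0.55 ± 0.19 (SE) between the TAFH-deleted and wild-type forms and by -3.47 ± 0.28 (SE) between knockout and control. Of the 12025 genes tested, 13 had a larger negative difference in knockout against control than Gas6. In wild-type rescue against knockout the Gas6 difference was -1.38 ± 0.24 (SE), and 60 genes lay lower. Against the same knockout sample, TAFH-deleted rescue differed by -1.93 ± 0.24 (SE). With a pseudocount of 0.1 the rescue values were -1.86 between the forms, -2.19 for wild-type rescue against knockout and -4.05 for TAFH-deleted rescue against knockout, and quantile normalization gave -0.15 between the forms. These comparisons share the knockout sample, and knockout against control shares it too, so they are not independent of each other. Neural and glial markers were summed beside Gas6 as another cell type. Of 9 such markers 8 were in the table and 3 reached 1 FPKM, with sums of 3.34 to 4.26 FPKM in TAFH-deleted rescue, 11.5 to 12.4 in wild-type rescue, 8.64 to 9.39 in knockout and 71.8 to 73.6 in control. The control sum is mostly Stmn2, at 57.1 and 56.6 FPKM there, and Sox10, a defining factor of glia and neural crest, was listed at 0 in every library. The part of such cells in the Gas6 levels was not tested.

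**Figure D1:**
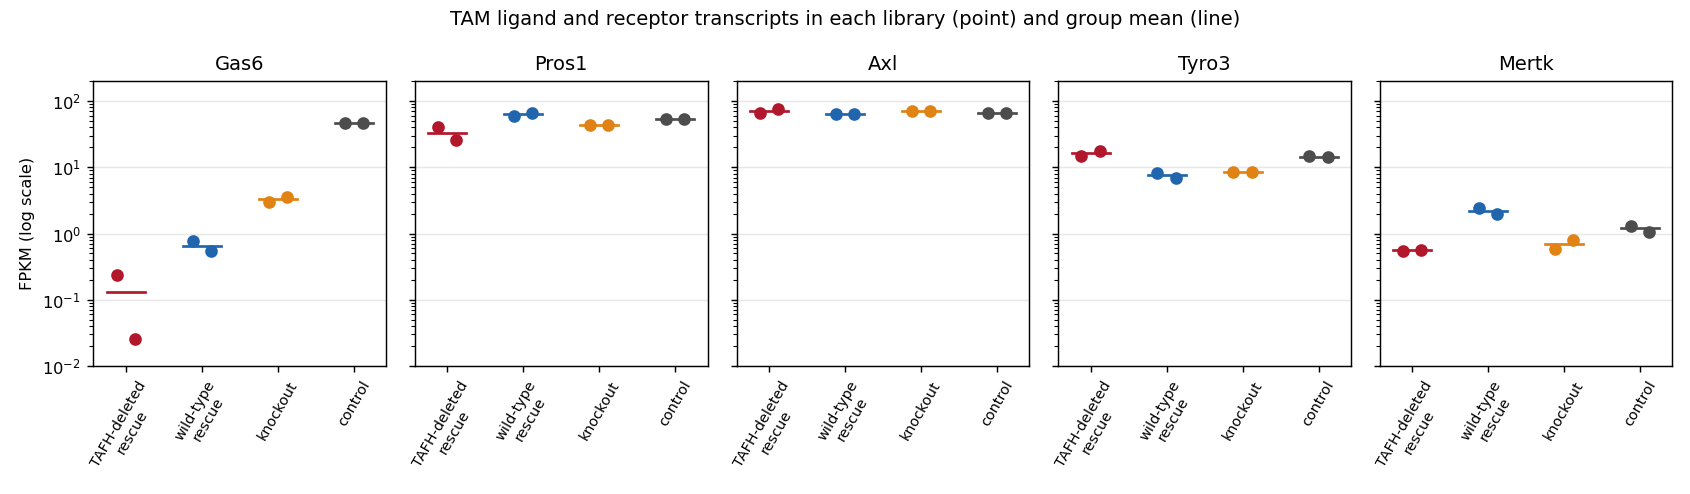
FPKM of the 5 genes on a log axis, with 1 point per library and a line at the group mean; the control and knockout pairs are each counted as 1 sample. Gas6 spans 0.0258 to 47.2 FPKM across libraries, whereas Axl stays between 63.9 and 75.7 FPKM.

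Pros1, the other ligand gene (mm9 chromosome 16, 62854160 to 62929166), was abundant in every library and differed far less. It was at 43.8 and 43.9 FPKM in knockout, against 53.0 and 53.4 FPKM in control, which is 0.824 of the control level (counting interval 0.791 to 0.858). The rescue forms lay on opposite sides of knockout, at 40.2 and 26.1 FPKM in TAFH-deleted clones and at 58.5 and 66.6 FPKM in wild-type rescue clones. Every wild-type rescue clone was also above both control libraries, and every TAFH-deleted clone was below them. TAFH-deleted clone 1 and knockout were closer than the TAFH-deleted clones were to each other, so these neighbours do not differ beyond that spread. Group means were 33.2 ± 9.94 FPKM with the TAFH-deleted form and 62.6 ± 5.69 FPKM with the wild-type form (SD, n = 2 each), a 1.89-fold difference. The fitted log2 difference between the forms was -0.92 ± 0.23 (SE). Without TAFH-deleted clone 2, the lower of its pair, the difference was -0.62, and without clone 1 it was -1.22. Read starts, counted on both strands, were in use at 19.9% to 52.7% of positions in Pros1. No gene of 14671 with a single transcript filled more than 97.4% of its read starts in any library, as if each start were counted at most 1 time. The part of such a limit in the Pros1 values was not tested.

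Outside control, nearly all ligand RNA was Pros1. Gas6 made up 0.581% and 0.0985% of the summed ligand FPKM in TAFH-deleted clones and 1.28% and 0.811% in wild-type rescue clones. The share was 6.40% and 7.56% in knockout, against 47.1% and 46.2% in control, where both genes were at near-equal levels per length. The sum itself was 40.4 and 26.2 FPKM in TAFH-deleted clones, 59.3 and 67.1 FPKM in wild-type rescue clones, 46.8 and 47.5 FPKM in knockout and 100.2 and 99.3 FPKM in control. The wild-type rescue clones thus exceeded knockout in the sum through Pros1, but no library of the other groups reached the sum in control.

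**Figure D2:**
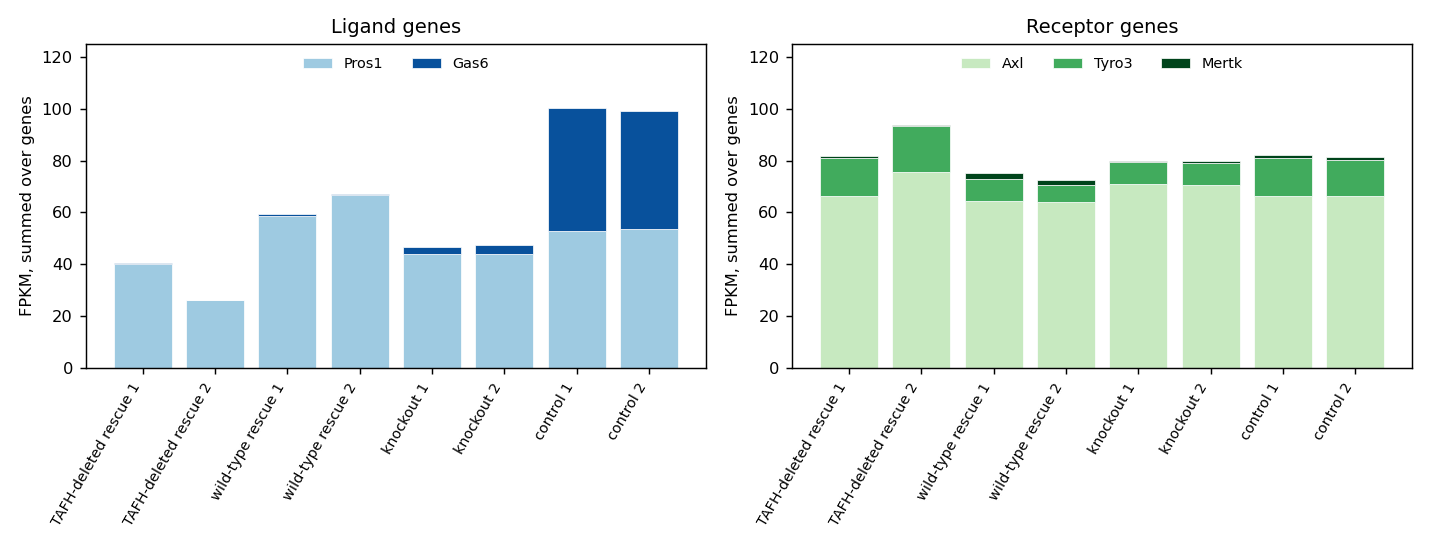
Stacked bars of FPKM in each library for the ligand genes (left) and the receptor genes (right), starting at 0. Gas6 holds 47.1% and 46.2% of the ligand bars in the 2 control libraries and at most 7.56% in any other library, while the receptor bars range from 72.6 to 93.8 FPKM.

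Axl (mm9 chromosome 7, 26541519 to 26573752) encodes the receptor with the highest affinity for GAS6 and was the most abundant receptor transcript in all 8 libraries. It was at 66.3 and 75.7 FPKM in TAFH-deleted rescue, 64.5 and 63.9 in wild-type rescue, 70.9 and 70.4 in knockout and 66.4 and 66.2 in control. The highest library was 1.19-fold above the lowest, and the TAFH-deleted clones alone spanned more than the gap between knockout and control. The fitted log2 difference was 0.09 ± 0.13 (SE) for knockout against control, 0.00 ± 0.11 for TAFH-deleted rescue against knockout and -0.14 ± 0.11 for wild-type rescue against knockout. Between the forms it was 0.14 ± 0.09. The first of these turned to -0.0049 and the wild-type rescue value to 0.0026 under quantile normalization, while the other values kept their sign there (0.04 for TAFH-deleted rescue against knockout and 0.03 between the forms). With the longest transcript alone, these turned to -0.15 and -0.03, and knockout against control turned to -0.04. Axl occupied 44.7% to 58.2% of its read starts, where the limit of 1 read per position could compress differences, which was not tested. The table divides Axl among 3 RefSeq transcripts of 5084, 5057 and 4793 bases. The shortest of these was at 17.9 and 15.7 FPKM in TAFH-deleted clones, 9.72 and 9.82 in wild-type rescue clones, 14.2 and 11.6 in knockout and 7.26 and 9.57 in control. The split among overlapping isoforms is an estimate by the authors' software, so this difference is less certain than the sum.

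Tyro3 (mm9 chromosome 2, 119625250 to 119643839) was the second most abundant receptor transcript, and its pattern ran opposite to that of Pros1 between the rescue forms. It was at 8.40 and 8.53 FPKM in knockout, against 14.5 and 14.1 FPKM in control, a 1.69-fold lower level (counting interval 1.56 to 1.83). TAFH-deleted clones were at 14.7 and 17.5 FPKM, against 8.25 and 6.78 FPKM in wild-type rescue clones. The order was therefore TAFH-deleted rescue, control, knockout and wild-type rescue. TAFH-deleted clone 1 and control lay closer together than the clones of either form, and so did wild-type rescue clone 1 and knockout, so these neighbours in the order do not differ beyond the spread between clones. The forms differed 2.15-fold, with means of 16.1 ± 1.96 FPKM for the TAFH-deleted form and 7.52 ± 1.04 FPKM for the wild-type form (SD, n = 2 each). On the log2 scale that was 1.01 ± 0.18 (SE), and 305 of 12025 genes lay higher. Tyro3 occupied at most 13.5% of its read starts.

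Mertk (mm9 chromosome 2, 128524733 to 128627924) was the scarcest receptor transcript. Its FPKM were 0.584 and 0.786 in knockout, against 1.31 and 1.07 in control, from 29 and 39 fragments against 76 and 62. Wild-type rescue clones had the highest levels, at 2.39 and 1.94 FPKM, whereas TAFH-deleted clones had 0.544 and 0.570 FPKM. Wild-type rescue thus stood 3.16-fold above knockout (counting interval 2.41 to 4.204) and 1.82-fold above control (1.47 to 2.26). TAFH-deleted rescue stood at 0.813 of the knockout level, with a counting interval of 0.562 to 1.17 that includes no difference. The forms differed by -1.02 ± 0.16 (SE) on the log2 scale. Quantile normalization brought that value to -0.57, brought knockout against control to -0.0048 (-0.38 without it), and turned TAFH-deleted rescue against knockout to 0.18 (-0.11 without it). A pseudocount of 0.1 moved values the other way, to -1.78 between the forms, -0.72 for knockout against control, 1.52 for wild-type rescue against knockout (0.91 with a pseudocount of 1) and -0.26 for TAFH-deleted rescue against knockout. The summed level of macrophage markers had its lowest and highest groups in common with Mertk. It was 7.71 to 9.02 FPKM in TAFH-deleted rescue, 17.1 to 23.4 in wild-type rescue, 14.05 to 15.4 in knockout and 14.8 to 16.4 in control. Single markers did not all follow the sum. Cd14 and Lyz2 were lower in both TAFH-deleted clones than in either wild-type rescue clone, with Lyz2 at 7.76 and 2.70 FPKM in the latter. Cd68 was at 1.05 and 3.45 FPKM in TAFH-deleted clones, against 2.40 and 2.94 FPKM in wild-type rescue clones. Of 12 such markers 10 were in the table and 3 reached 1 FPKM in at least 2 libraries (Cd14, Cd68 and Lyz2). Csf1r, also on the list, was at 0.134 and 1.09 FPKM in TAFH-deleted clones, against 0.447 and 0.419 FPKM in wild-type rescue clones. The defining markers Ptprc, Emr1 and Itgam were at most 0.0229 FPKM, and Tyrobp was listed at 0 in every library. The part of macrophages in the Mertk levels was not tested.

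The summed receptor FPKM varied less than the summed ligand FPKM, at 81.6 and 93.8 FPKM in TAFH-deleted rescue, 75.1 and 72.6 in wild-type rescue, 79.9 and 79.7 in knockout and 82.3 and 81.4 in control. Axl made up 80.7% to 88.7% of it. The ratio of Tyro3 to Mertk was 27.1 and 30.7 in TAFH-deleted clones, 3.45 and 3.49 in wild-type rescue clones, 14.4 and 10.9 in knockout and 11.1 and 13.2 in control. Tyro3 and Mertk differed in opposite directions between the rescue forms. Their ratio therefore had to separate the forms and adds no result of its own. Its denominator rests on 26 to 137 Mertk fragments per library.

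**Figure D3:**
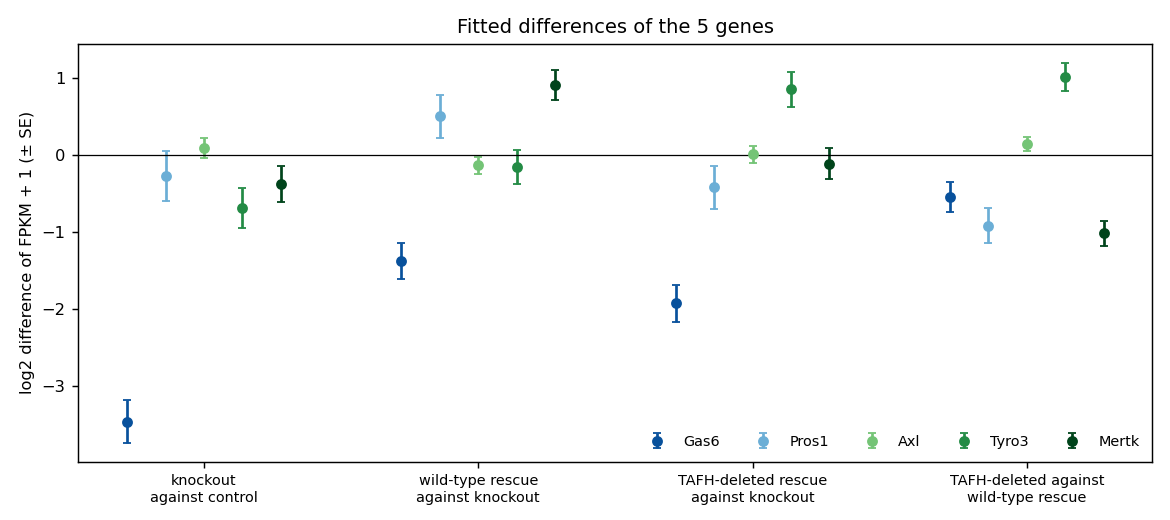
Fitted log2 differences of FPKM + 1, with bars for 1 SE, in 4 comparisons; the first group named under each column is the one a positive value favours. Gas6 is lowest in the first 3 columns, at -3.47, -1.38 and -1.93, and Tyro3 (1.01) stands opposite to Pros1 (-0.92) and Mertk (-1.02) in the last.

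Across all genes, the limma test with Benjamini-Hochberg adjustment at 0.05 called 0 of the 5 genes in each comparison. Knockout against control called 0 genes in all (0%), with 1108 genes and 1 of the 5 at an unadjusted p under 0.05. Wild-type rescue against knockout also called 0% of genes, with 1602 genes and 2 of the 5 under that level, and TAFH-deleted rescue against knockout 0%, with 789 genes and 2 of the 5. TAFH-deleted against wild-type rescue called 2.62% of genes (0.931% higher and 1.69% lower with the TAFH-deleted form), with 3465 genes and 4 of the 5 under an unadjusted p of 0.05. The fit had 2 residual degrees of freedom, from the rescue clones alone, so a gene that misses the threshold is not shown to be unchanged. Groups of TAFH-deleted and wild-type rescue clones did not overlap for any of the 5 genes, which also held for 63.5% of all genes tested. For 3 of the 5 genes (Pros1, Mertk and Tyro3) the clones of the forms lay on opposite sides of both knockout libraries, as did 22.8% of all genes tested. In the authors' deposited table, 5 of the 6 member transcripts tested were called for knockout against control, where 53.8% of all transcripts tested were. The authors' deposited table also calls 3 of 6 for wild-type rescue against knockout (Gas6, Pros1 and Mertk), against 25.8% of all transcripts. For TAFH-deleted rescue against knockout the authors' deposited table calls Gas6 alone (q = 0.00724), 1 of 6, against 0.957% of all transcripts. Since the genes were proposed with these data known, nothing is read from these counts.

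Genes that work with TAM ligands and receptors were taken as 4 lists. The first, the bridge and receptor list, holds phosphatidylserine bridges and receptors with other genes linked to dying cells, such as Cd47, Cx3cl1 and Lrp1. The others are the vitamin K cycle with other Gla proteins, receptor shedding with phosphatidylserine exposure, and signalling partners. Of 91 symbols, 89 were in the table and 64 were tested. The only gene called in any of the 4 comparisons was Lrp1, an endocytic receptor of the LDL receptor family that binds calreticulin on apoptotic cells. It fell in TAFH-deleted against wild-type rescue, at 29.1 and 30.0 FPKM against 57.7 and 56.3 FPKM, a log2 difference of -0.93 ± 0.07 (SE, limma adjusted p = 0.0389). Knockout cells had 42.1 and 42.0 FPKM of Lrp1, against 44.8 and 44.3 in control. One call among 64 genes is 1.56%, against 2.62% of all genes, and the call was lost without a filter on low values, with the longest transcript alone, and when either wild-type rescue clone was left out.

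In knockout against control, 40 of the 64 genes were higher and 24 lower, none called and 2 at an unadjusted p under 0.05 (limma). Over all genes tested, 5428 were higher and 6597 lower. The median log2 difference was 0.14, against -0.03 over all genes tested. The sign differed in the 22 genes with under 20% of read starts in use on average, whose median was -0.11. Mfge8, which encodes another phosphatidylserine bridge, used 78.0% of its read starts on average and was at 119 FPKM in both knockout libraries, against 102 FPKM in both control libraries. Knockout libraries had 14800000 fragments each and control libraries 17300000. The part of depth and of a limit on read starts in the Mfge8 difference was not tested. Of the bridge and receptor list 9 of 14 were higher, of the vitamin K and Gla genes 4 of 9, of the shedding and exposure genes 8 of 12 and of the signalling partners 19 of 29. The largest difference in the lists was that of Rhbdf2, an inactive rhomboid protein that escorts the receptor-shedding protease ADAM17 to the cell surface. Rhbdf2 was listed at 0 and at 0.0196 FPKM in knockout, against 5.86 and 5.61 FPKM in control (log2 difference -2.74 ± 0.18 SE, limma adjusted p = 0.128). Like Gas6 it did not return, being listed at 0 in both TAFH-deleted clones and at 0.0170 and 0 FPKM in wild-type rescue clones. Adam17 itself was at 40.3 and 40.1 FPKM in knockout, against 32.7 and 32.4 FPKM in control. Postn, encoding the matrix protein periostin, reported to carry Gla residues, was at 32.0 and 30.4 FPKM in knockout, against 97.6 and 97.5 in control. Nqo1, a quinone reductase that can reduce vitamin K, was at 22.5 and 23.3 FPKM, against 44.1 and 44.7, and Plscr1, a phospholipid scramblase, at 24.4 and 25.4 FPKM, against 17.0 and 16.6. Ggcx, the carboxylase that modifies the Gla domains of both ligands, was at 33.4 and 33.5 FPKM in knockout, against 23.3 and 24.0 FPKM in control. None of these passed the test.

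In wild-type rescue against knockout, 22 of the 64 genes were higher and 42 lower, none called and 6 at an unadjusted p under 0.05 (limma), with a median of -0.07, against -0.04 over all genes. All genes tested divided into 5450 higher and 6574 lower. The sign differed again in the 22 genes with under 20% of read starts in use, whose median was 0.02. Of the bridge and receptor list 3 of 14 were higher, of the vitamin K and Gla genes 4 of 9, of the shedding and exposure genes 3 of 12 and of the signalling partners 12 of 29. Postn was at 92.1 and 68.8 FPKM in wild-type rescue, against 32.0 and 30.4 FPKM in knockout. Cask, a membrane scaffold protein, was at 12.6 and 11.7 FPKM, against 21.9 and 21.5. Pik3cb, a catalytic subunit of phosphoinositide kinase, was at 9.27 and 9.31 FPKM, against 15.1 in both knockout libraries. Scarb1, a scavenger receptor that can bind phosphatidylserine, was at 21.8 and 25.4 FPKM, against 33.3 and 34.5. These 4 genes had the largest differences among list genes with a group mean of at least 5 FPKM, and none passed the test (limma adjusted p between 0.257 and 0.628).

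In TAFH-deleted rescue against knockout, 26 genes of the lists were higher and 38 lower, none called and 5 at an unadjusted p under 0.05 (limma), with a median of -0.05, against 0.03 over all genes. All genes tested divided into 6701 higher and 5315 lower. The 22 genes with under 20% of read starts in use had a median of -0.03. Socs3, a feedback inhibitor of cytokine signalling that TAM receptors induce in dendritic cells, was at 25.5 and 19.9 FPKM in TAFH-deleted rescue, against 45.5 and 46.0 FPKM in knockout. Its log2 difference was -0.99 ± 0.18 (SE, limma adjusted p = 0.582). Cx3cl1, a chemokine released by dying cells, was at 54.0 and 15.5 FPKM, against 63.4 and 64.0, and so differed mostly in clone 2. Nqo1 was at 26.1 and 49.3 FPKM, against 22.5 and 23.3, and Pik3r1, a regulatory subunit of phosphoinositide kinase, at 16.1 and 11.5 FPKM, against 20.8 and 20.9. In TAFH-deleted against wild-type rescue, 33 genes of the lists were higher and 31 lower, 12 at an unadjusted p under 0.05 and Lrp1 called (limma), with a median of 0.03, against 0.06 over all genes. All genes tested divided into 6740 higher and 5282 lower. The sign differed in the 22 genes with under 20% of read starts in use, whose median was -0.06.

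**Figure D4:**
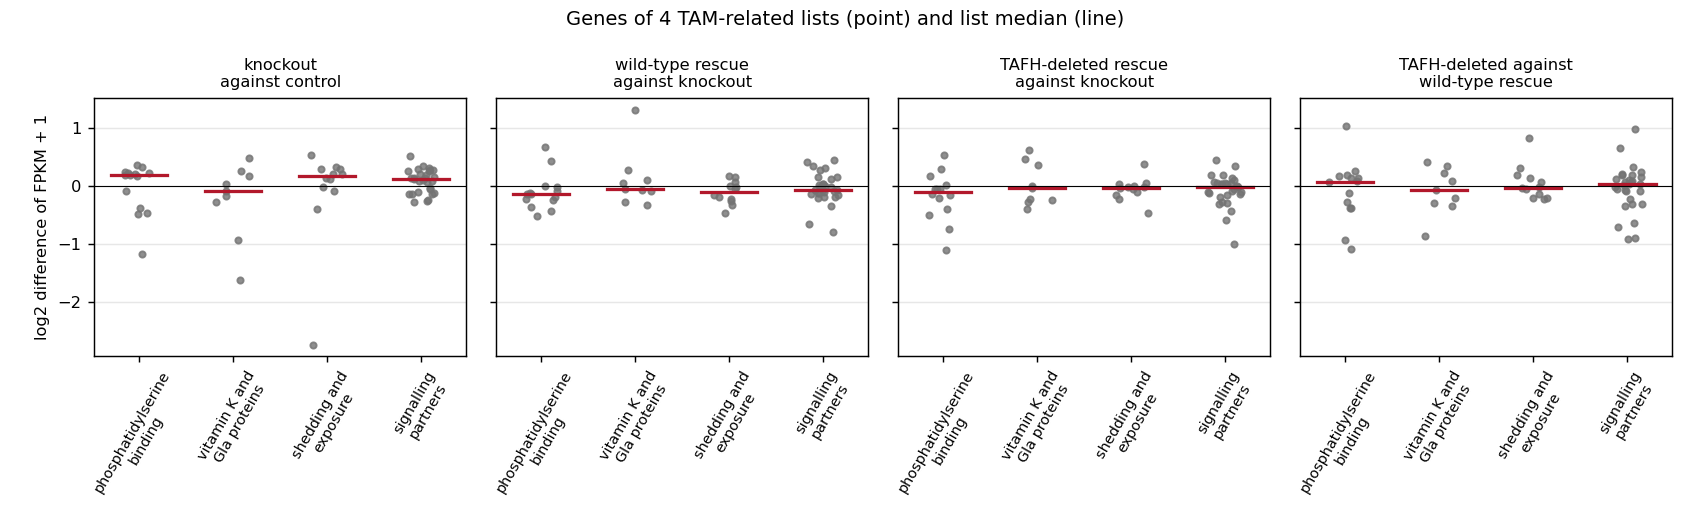
Log2 differences of FPKM + 1 for the 64 tested genes of the 4 lists, 1 point per gene, with a line at each list's median. The lowest point, at -2.74 in knockout against control, is Rhbdf2, and the medians lie between -0.13 and 0.20. The column marked phosphatidylserine binding is the whole bridge and receptor list.

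Genes high in control and low in all other groups, like Gas6, were counted next. With thresholds chosen after the data were seen, 147 genes (1.22% of those tested) had at least 5 FPKM in control and were at least 4-fold lower in knockout. Of these, 42 (0.349% of those tested) were at least 4-fold below control in all 4 rescue clones too, and 8 of the 42 were also below both knockout libraries in every clone (0.0665%). Gas6 is among the 8 by construction, and nothing is read from its place there. The means in TAFH-deleted rescue were below those in wild-type rescue, as for Gas6, in 4 of the 8 and above them in the other 4. Beside Gas6, the 8 include Cdh11, a mesenchymal cadherin, at means of 0.709 FPKM in TAFH-deleted rescue, 2.40 in wild-type rescue, 4.94 in knockout and 31.0 in control. Lmo1, which encodes a LIM-domain partner of transcription factors, was at means of 0.284, 0.102, 0.857 and 14.3 FPKM in the same order. Smarca1, a chromatin remodelling ATPase, was at 0.409, 0.260, 0.675 and 5.10 FPKM.

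The patterns of the 5 genes were set beside those of 9701 genes that reached 5 FPKM in some sample, by Pearson r of log2(FPKM + 1) over 6 samples. The samples share library preparation and, for 5 of them, the knockout origin, so r is given as a description. Gas6 was most like Rnf130 (r = 0.996), Ggta1 (0.989) and Slc2a8 (0.989), and its r rests on the control sample, which alone was high. Rnf130 was at 0.913 FPKM in knockout, against 6.08 FPKM in control, and was listed at 0 in 3 of the 4 rescue clones. A high r reflects the shape of a pattern and not its size. Slc2a8 differed far less than Gas6, at 13.3 FPKM in knockout, against 15.4 FPKM in control. Pros1 was most like Sobp (0.999), Zfp383 (0.998) and Sgce (0.994), and Mertk like Clasp1 (0.998), Mbd1 (0.995) and Rnft1 (0.994). Genes most like Tyro3 included Pus10 (0.993) and Gtf2ird1 (0.992), and Axl was most like Dclre1b (0.998), Sfxn2 (0.992) and Ehd1 (0.986). Among the 5 genes themselves, Mertk and Pros1 had r = 0.82, Axl and Pros1 r = -0.91, and Gas6 lay between -0.17 and 0.31 with every other member.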

How the data were processed

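The members and gene lists were chosen with earlier results of these data known. The submitters' processing notes name CASAVA 1.8, TopHat, Cufflinks, Cuffdiff and the mm9 build. Other versions and normalization options are not given in the sources used here. The authors deposited FPKM for 30028 transcripts, with their means and their p-values and q-values, per the file headers. Transcript length in bases is also in the deposited table.

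FPKM were summed per symbol and chromosome, and 47 symbols changed to dates were restored by accession. With 204.1 bases taken from each length, 96.2% to 97.4% of low values in 14671 single-transcript genes were whole fragments within 0.05. This gave library totals, member fragments and read starts in use. Gapdh was listed at 0.0682 to 0.599 FPKM, so a low listed value can be a failed estimate.

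limma 3.58.1 (R 4.3.3, trend) was fitted to log2(FPKM + 1) of 6 samples. Genes needed 1 FPKM in 2 libraries and a transcript of at least 300 bases. Tests were two-sided and adjusted by Benjamini-Hochberg at 0.05 over 12025 genes. The fit was also run on simulated data with equal noise in all genes and large changes in abundant genes only. That run checked the size of the estimated differences and not the error rates of the test on these data. List genes were named when called (up to 12 per comparison). Where none was called, the 4 largest differences with a group mean of at least 5 FPKM were named, and the 3 genes most like each member, other than predicted, Rik and small RNA genes, were added; 1 of these genes is not reported here. Alternatives were no filter, a pseudocount of 0.1, quantile normalization, the longest transcript, short transcripts kept, single libraries with and without a replicate block, only the groups compared, and each library left out. Values of Adam17, Ggcx and Mfge8, the markers named, and the 20% split were chosen after values were seen. Whether libraries come from separate cultures is not in the labels. A p-value here therefore reflects spread among these samples only, which may be technical.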

Additional observations from a re-analysis of the deposited data

Results flagged for a closer look

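Pros1, Mertk and Tyro3 stood out because the rescue forms lay on opposite sides of knockout in every clone. Pros1 and Mertk were below both knockout libraries in both TAFH-deleted clones and above them in both wild-type rescue clones, and their log2 differences between the TAFH-deleted and wild-type forms were -0.92 and -1.02. Tyro3 was above knockout in both TAFH-deleted clones and below it in both wild-type rescue clones, with a difference of 1.01 between the forms. Some gaps were narrow: wild-type rescue clone 1 had 8.25 FPKM of Tyro3, against 8.40 and 8.53 FPKM in knockout, and TAFH-deleted clone 2 had 0.570 FPKM of Mertk, against 0.584 and 0.786 FPKM in knockout. The counting interval of Mertk in TAFH-deleted rescue over knockout, 0.562 to 1.17, includes no difference. For Pros1, TAFH-deleted clone 1 and knockout were closer than the TAFH-deleted clones were to each other. Since both responses are taken against the same knockout sample, their difference is that between the forms, and limma called none of the 3 genes there at an adjusted p of 0.05. Of the 12025 genes tested, 22.8% showed such a split.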

How the results depend on the processing

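The count of list genes called depended on how the spread was estimated. Against 0 for knockout against control, 0 for wild-type rescue against knockout, 0 for TAFH-deleted rescue against knockout and 1 for TAFH-deleted against wild-type rescue, of 64 list genes, fitting 8 libraries singly gave 20, 17, 7 and 22 (31.2%, 26.6%, 10.9% and 34.4%, against 23.8%, 24.9%, 8.93% and 38.0% of all genes). The same fit with a replicate block gave 14, 12, 3 and 16 (21.9%, 18.8%, 4.69% and 25%, against 16.8%, 18.6%, 3.83% and 32.6% of all genes). Numbers do not pair these samples: deviations of same-numbered libraries correlated between -0.0776 and 0.0571 over genes. Without a filter on low values the first count was 1 and the last 0, with the longest transcript alone the last was 0, and with only the groups compared wild-type rescue against knockout gave 20 (31.2%, against 26.4% of all genes; knockout against control could not be fitted so). Leaving out 1 library gave 0 to 24, 0 to 18, 0 to 24 and 0 to 39. The higher counts came without TAFH-deleted clone 1 (24, 18, 24 and 39, where 22.6%, 26.7%, 33.4% and 55.9% of all genes were called) or clone 2 (24, 18, 5 and 24, where 22.1%, 26.6%, 3.81% and 40.0% were), and 0 in the last comparison came when either wild-type rescue clone was left out. A form left with 1 clone is assumed to vary like the other groups. The cause of these shifts was not tested. All genes called moved likewise: 0 to 2857, 0 to 3211, 0 to 4013 and 0 to 6722. Of 260 member values under 13 alternatives, 239 moved by less than 1 SD between clones, 21 moved more and 8 changed sign, 7 of them for Axl and 1 for Mertk. Many of these values could not move. Leaving out a library of neither group compared does not alter the difference, nor does the longest transcript for genes with 1 transcript. The count of 239 is therefore no measure of robustness. Over the 5 members and 4 comparisons, 0 of 20 member results were called as reported, where 0.655% of all gene results were. The count was 10 of 20 with 8 libraries fitted singly (23.9% of all), 10 of 20 with the replicate block (17.9%), 13 of 20 without TAFH-deleted clone 1 (34.6%), 8 of 20 without clone 2 (23.1%) and 3 of 15 with only the groups compared (9.42%). The members were chosen on these data, so nothing is read from these counts. The Gas6 difference in knockout against control lay between -3.78 and -3.37 in all alternatives, and Tyro3 between the forms between 0.88 and 1.13. Depth limits Gas6 in TAFH-deleted rescue, at 9 fragments in all, and Mertk, at 26 to 137 per library.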

Other observations

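The genes next to Gas6 on chromosome 8 were looked at after its values were seen. Of the 4 nearest on each side, in mm9 order and leaving out small RNA genes, 3 were expressed above 1 FPKM, and none had a drop like that of Gas6. Rasa3, a Ras GTPase-activating protein 72682 bases distal, was at 32.6 and 32.4 FPKM in TAFH-deleted rescue, 40.7 and 49.0 in wild-type rescue, 32.9 and 32.8 in knockout and 42.0 in both control libraries. Tfdp1, a dimer partner of E2F factors 87671 bases proximal, was at 32.4 and 38.9 FPKM in TAFH-deleted rescue, 28.3 and 26.4 in wild-type rescue, 32.3 and 32.7 in knockout and 35.3 in both control libraries. Cdc16, a subunit of the anaphase-promoting complex 263154 bases distal, averaged 67.8, 69.0, 71.4 and 75.4 FPKM in these groups in that order.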
